A study of Mus musculus with 20 samples.

Results

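Ddx10-knockdown cells were compared with control cells at day 1 of reprogramming, over all 15757 genes of the expression table. The comparison used 4 of the series' 20 libraries, and its members were taken by the labelled arm and day, with no expression value involved. The tested libraries (labelled OSKM-shDdx10-D1) came from OG2 mouse embryonic fibroblasts at passage 2, which had received retroviruses for Oct4, Sox2, Klf4 and Myc (OSKM) together with shRNA against Ddx10. The reference libraries (labelled OSKM-shLuci-D1) came from the same kind of fibroblasts with the same factors and an shRNA against luciferase, an enzyme that mouse cells lack. Both arms were kept in iCD1 medium, and each arm has 2 libraries of this day. OG2 mice carry a fluorescent reporter under Oct4 regulatory sequence, and embryonic fibroblast cultures can hold cells of several kinds. The series text speaks of Ddx10 shRNAs and of biological replicates, but which hairpin a library had and whether replicates were separate cultures are not given in the sources used here. The p-values below therefore measure only a spread between libraries, and that spread is shared over all 20 libraries of the series. The control libraries of day 1 lay further apart than other pairs. SEs and p-values of the day 1 comparison may therefore understate its own spread.

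Ddx10 is a DEAD-box RNA helicase of the nucleolus. Its yeast counterpart, Dbp4, acts in the early processing of ribosomal RNA on the way to the small ribosomal subunit. During the opening days of OSKM reprogramming, fibroblasts are known to divide faster, to shed parts of their mesenchymal programme and, where retroviruses were used, to answer foreign nucleic acid with type I interferon. Interferon binds a cell surface receptor and switches on a large group of antiviral genes.

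Values are the authors' normalized read counts, and fold changes are differences of log2(value + 1), which understates changes of low genes. A gene is called when its adjusted p from limma, fitted to all 20 libraries together, is below 0.05. To 3 significant digits, the deposited values summed to 17200000 and 17100000 in the knockdown libraries and to 17700000 and 17400000 in the control libraries. The step between the lowest values put the depth at about 18700000 and 15600000 reads in the knockdown, against 17500000 and 12300000 reads in the control. Fibroblast markers were high in all 4 libraries, with Col1a1 at 64711 and 61517 in the knockdown and 57876 and 60494 in the control, and 0 of 10 such markers were called. Of 9 measured macrophage markers, 5 stayed under 10 in every library, and among 6 pluripotency markers Dppa5a and Utf1 were at 0 in all 4. In these bulk samples, fewer cells of a type and less RNA per cell cannot be told apart.

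The knockdown of Ddx10 was seen in both libraries. Ddx10 (ENSMUSG00000053289), on the minus strand of mm10 chromosome 9 between 53098635 and 53248053, had 255 and 321 normalized read counts in knockdown cells, against 804 and 921 in control cells. The groups did not overlap, and the means were 288 ± 46.8 and 862 ± 82.9 (SD, n = 2 each). The log2 fold change of -1.58 (SE 0.12, adjusted p = 8.78e-06) was the largest called fall among genes detected in both arms. At day 0 Ddx10 already stood at 313 and 319 in knockdown cells, against 523 and 499.9 in control cells, and at day 3 at 306 and 355 against 803 and 841. The day 1 effect exceeded the day 0 effect by -0.89 (adjusted p of the difference 0.0343). Knockdown libraries differed little between these days, while the control libraries of day 1 lay above those of day 0.

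Few genes passed the threshold at day 1. Relative to control, 19 genes fell in knockdown cells, which is 0.121% of the genes tested, and 4 rose, which is 0.0254%. A further measure, that both knockdown libraries lie on the same side of both control libraries, was met by 18.1% of all genes in the lower direction and by 16.6% in the higher. The 23 called genes all met it. At an unadjusted p below 0.05 stood 2066 genes, 1148 of them lower and 918 higher. The same test called 521 genes at day 0 (3.31%) and 751 at day 3 (4.77%). At day 0, 128 of these were lower and 393 higher, and at day 3, 355 were lower and 396 higher. These counts come with an unequal spread: the control libraries of day 1 differed from each other more than the replicates of any other group, as described at the end.

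**Figure D1:**
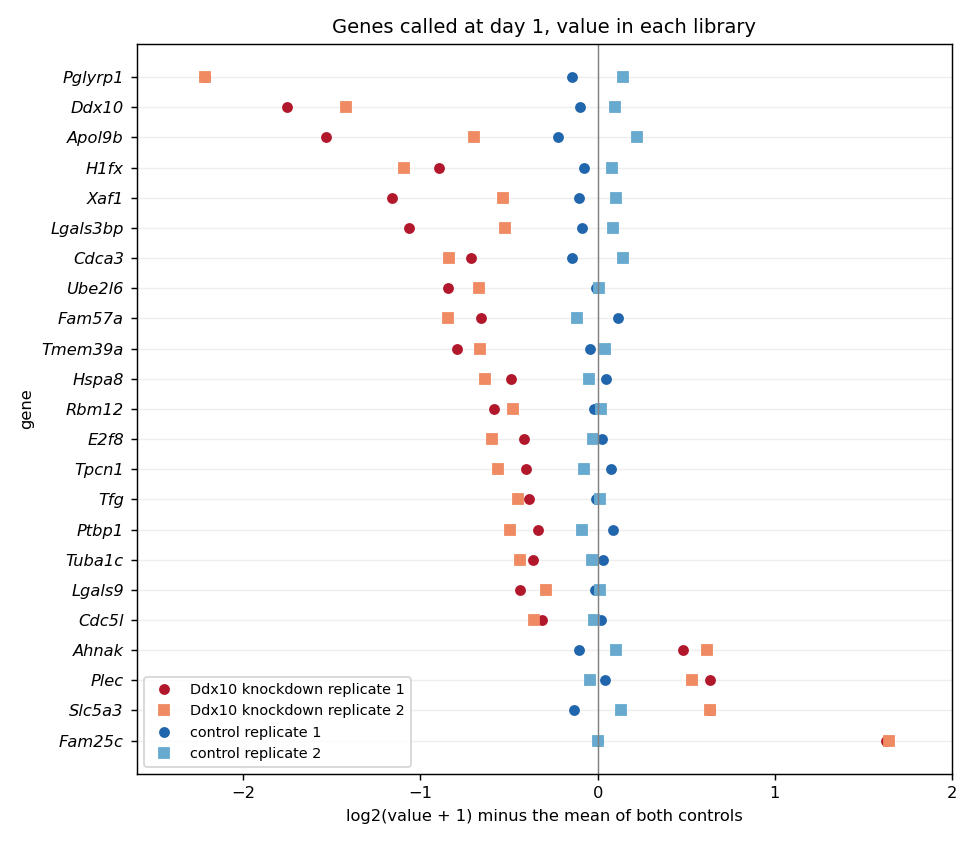
Called genes at day 1. Each row is a gene, and the x axis gives log2(value + 1) in each library minus the mean of both control libraries; red and orange points are the knockdown libraries, dark and light blue points the control libraries. In all 23 rows the knockdown points lie on the same side of both control points, with Ddx10 at -1.58 on average; the interferon-stimulated Xaf1, Lgals3bp and Apol9b show the widest gaps between the knockdown libraries among genes that fell.

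Of the 19 genes that fell, 4 belong to a list of interferon-stimulated genes. Xaf1, which encodes a partner of the apoptosis inhibitor XIAP, had 358 and 554 normalized read counts in knockdown cells, against 745 and 861 in control cells. Lgals3bp, the gene of a secreted glycoprotein that binds galectin-3, had 542 and 789 in knockdown cells, against 1069 and 1204 in control cells. Apol9b, a mouse apolipoprotein L gene, had 60.6 and 109 in knockdown cells, against 152 and 207 in control cells. In each of these genes knockdown replicate 1 was the lowest library and replicate 2 lay between it and the controls. Ube2l6, which encodes the conjugating enzyme for the ubiquitin-like protein ISG15, was at 178 and 201 in knockdown cells, against 318 and 322 in control cells, with little spread in either arm.

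The log2 fold change was -0.84 for Xaf1 (SE 0.14, adjusted p = 0.0331), -0.79 for Lgals3bp (SE 0.14, adjusted p = 0.0453), -1.11 for Apol9b (SE 0.20, adjusted p = 0.0488) and -0.76 for Ube2l6 (SE 0.11, adjusted p = 0.00921). Lgals9, the gene of galectin-9, which interferon gamma induces in several cell types, fell as well. It had 1869 and 2068 in knockdown cells, against 2501 and 2558 in control cells, a log2 fold change of -0.36 (SE 0.07, adjusted p = 0.0488). Apol9b has a near-identical neighbour, Apol9a, which stood at 97.3 and 189 in knockdown cells against 243 and 269 in control cells (log2 -0.91, adjusted p = 0.0671). Reads of the 2 paralogs may have been split between them, so their separate values are uncertain. All of the calls of Xaf1, Lgals3bp, Apol9b, Ube2l6 and Lgals9 were lost when knockdown replicate 1 was left out, with adjusted p-values of 0.115, 0.18, 0.18, 0.0702 and 0.188 in that order.

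Interferon-stimulated genes often carry, just before their start, short repeats with a GAAA core that interferon regulatory factors bind. The 100 bases before the RefSeq start (GRCm38.p6, 5′ to 3′ on the gene's strand) are shown for these genes, with matches to AANNGAAA on either strand in capitals, to let the reader see which of them carry such a core.
Xaf1, chr11:72301529-72301628, plus strand: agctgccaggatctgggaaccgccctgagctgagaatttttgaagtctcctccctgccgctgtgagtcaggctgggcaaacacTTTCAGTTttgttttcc
Lgals3bp, chr11:118401960-118402059, minus strand: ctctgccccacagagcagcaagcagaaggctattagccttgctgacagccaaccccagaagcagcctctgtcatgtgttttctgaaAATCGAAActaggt
Apol9b, chr15:77728972-77729071, plus strand: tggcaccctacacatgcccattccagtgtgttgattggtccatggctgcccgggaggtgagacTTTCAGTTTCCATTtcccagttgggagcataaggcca
Lgals9, chr11:78984925-78985024, minus strand: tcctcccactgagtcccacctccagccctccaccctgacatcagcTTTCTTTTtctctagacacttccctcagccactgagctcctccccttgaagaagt
Ube2l6, chr2:84798728-84798827, plus strand: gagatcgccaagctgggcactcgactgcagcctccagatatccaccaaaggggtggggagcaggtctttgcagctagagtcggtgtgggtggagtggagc

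Xaf1, Lgals3bp and Lgals9 each hold 1 match, Apol9b holds 2 that overlap, and the Ube2l6 window holds none of these letters. Among all 32810 RefSeq windows of the same length, 8.05% hold a match. Of the 23 called genes, 18 had an entry in the table, and 4 of the 18 held a match, all of them shown above. The RefSeq start lies 133 bases inside the gene as GENCODE draws it for Lgals3bp, 33 bases inside it for Apol9b and 22 bases inside it for Lgals9. The core was chosen after the sequences had been seen, and a match is a description of the letters only. Also searched on both strands were the cell cycle element TTTGAA, found in 2 of the 18 windows and in 5.76% of all, CCAAT, found in 5 and in 18.9% of all, and the E2F cores TTCCCGC and TTGGCGC, found in none of the 18 and in 1.69% and 0.914% of all.

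Across a list of 46 interferon-stimulated genes, 44 were measured, and the same picture held at lower certainty. Of the 44, 4 fell, 0 rose and 40 did not pass the test. The median log2 fold change was -0.60, where the median of all genes was -0.00, and in 29 of 44 (65.9%) both knockdown libraries lay below both controls, where 18.1% of all genes did. Among members that did not pass, Isg15, the gene of a ubiquitin-like modifier, had 89.4 and 222 in knockdown cells, against 380.4 and 314 in control cells (log2 -1.29, adjusted p = 0.108). The groups did not overlap, and the knockdown libraries of Isg15 lay further apart than its control libraries. Apol9a and Isg15, and Oasl2, Eif2ak2, Cenpe, Pold2, Flna, Ahnak2, Lyz2 and Cd68 in later paragraphs, were picked after their values were seen.

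The size of this difference depended on which knockdown library was used. In 41 of the 44 genes knockdown replicate 1 was the lowest of the 4 libraries, and in 34 control replicate 2 was the highest. Against control replicates 1 and 2, the list median was -0.86 and -1.10 for knockdown replicate 1, and -0.15 and -0.39 for knockdown replicate 2. Between the knockdown libraries themselves it was -0.73 (replicate 1 over 2), larger than the difference between the arms, and between the controls it was -0.21 (replicate 1 over 2). Leaving out knockdown replicate 1 brought the list median to -0.25, and leaving out replicate 2 brought it to -0.97. Knockdown replicate 2 still lay below both controls in 29 of the 44 genes. Oasl2, an oligoadenylate synthetase-like gene, shows the pattern at 114 and 312 in knockdown cells against 488 and 459.8 in control cells (log2 -1.32, adjusted p = 0.108). Eif2ak2, which encodes the double-stranded RNA sensor PKR, shows overlap, at 1527 and 2246 in knockdown cells against 1792 and 2046 in control cells (log2 -0.05, adjusted p = 0.933).

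**Figure D2:**
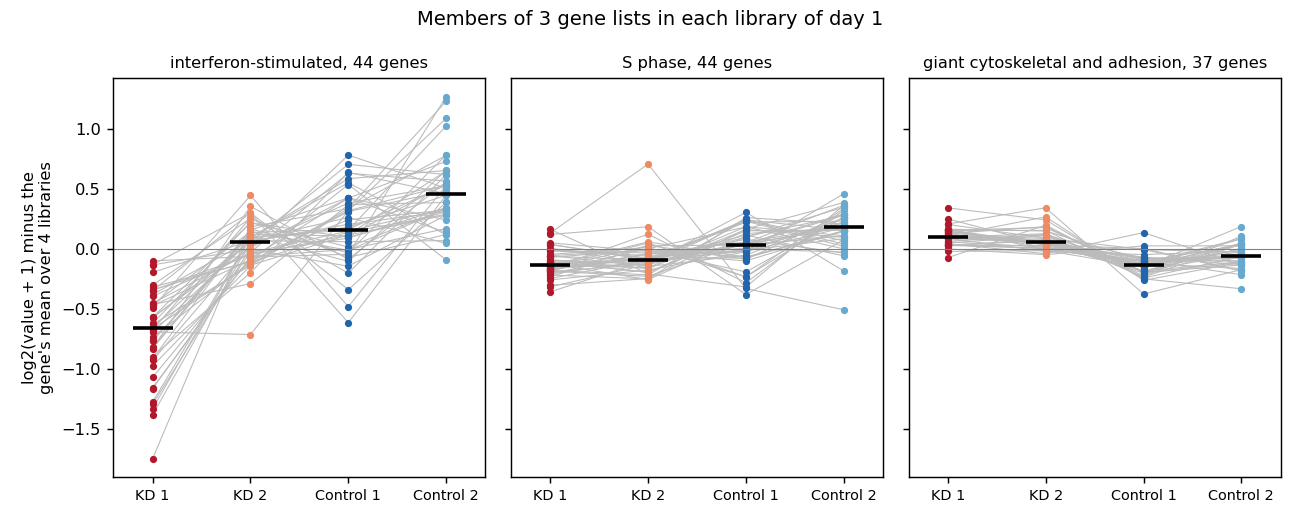
Members of 3 gene lists in the 4 libraries of day 1. Each grey line is a gene, points give its log2(value + 1) minus its mean over the 4 libraries, and black bars are medians over the list. In the interferon-stimulated list the medians are -0.66 and 0.06 in knockdown replicates 1 and 2 and 0.16 and 0.45 in control replicates 1 and 2; in the S phase and giant cytoskeletal lists both knockdown medians lie on the same side of both control medians.

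Large GTPases that interferon induces followed the same order of libraries. Of 17 listed, 16 were measured and 0 were called, with a median log2 of -0.64. In 7 of the 16 (43.8%) the knockdown libraries lay below both controls, where 18.1% of all genes did. The median was -0.83 and -1.31 for knockdown replicate 1 against control replicates 1 and 2, and 0.06 and -0.39 for knockdown replicate 2. Knockdown replicate 2 was thus level with control replicate 1. At day 3 the median of these GTPase genes was -0.92, with 6 called lower, and at day 0 it was 0.24 with 0 called. Of all 15757 genes, 355 were called lower at day 3. Igtp, an immunity-related GTPase gene, had 46.5 and 66.2 in knockdown cells, against 80.7 and 145 in control cells (log2 -0.95, adjusted p = 0.119). Its neighbour Irgm2 had 103 and 194 in knockdown cells, against 207 and 272 in control cells (log2 -0.74, adjusted p = 0.164). Exons of Igtp and Irgm2 overlap in the annotation, so their reads may be shared. Irgm1 was at 1111 and 1866 in knockdown cells, against 1939.9 and 2377 in control cells (log2 -0.58, adjusted p = 0.174).

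Among 18 antigen presentation genes 0 were called, and the median log2 was -0.22. H2-K1, a classical class I heavy chain gene, had 396 and 434 in knockdown cells, against 513 and 585 in control cells (log2 -0.40, adjusted p = 0.0667). H2-Q4, a non-classical class I gene, had 112 and 130.3 in knockdown cells, against 184 and 179.8 in control cells (log2 -0.59, adjusted p = 0.0783). H2-T22 had 481 and 569 in knockdown cells, against 627 and 690.1 in control cells (log2 -0.33, adjusted p = 0.155). The groups stayed apart in all 3 genes, which were picked as the members with the smallest p. Over the whole list, both knockdown libraries lay below both controls in 44.4%, compared with 18.1% of all genes. They lay above both controls in 5.56%, compared with 16.6% of all genes. H2-D1, another class I gene, overlapped, at 1343 and 1248 in knockdown cells against 1225 and 1251 in control cells. At day 3 the median of this list was -0.52, with 9 of its 18 genes called lower, where 355 of all 15757 genes were. Class I genes are near copies of each other, so reads may have moved between them. Among chemokine and inflammation genes, 0 of 22 were called, and the interferon-induced chemokine gene Cxcl10 had 20.8 and 48.2 in knockdown cells, against 76.6 and 75.2 in control cells (log2 -1.23, adjusted p = 0.246).

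The interferon-stimulated genes did not have a median as low at the neighbouring days, and the list itself was not tested between days. Their median was 0.12 at day 0, with 1 gene lower and 1 higher by the test, and -0.04 at day 3, with 4 lower and 0 higher. Of all 15757 genes, 128 were called lower at day 0 and 355 at day 3. Xaf1 at day 0 had 202 and 197 in knockdown cells, against 117 and 118 in control cells, a rise (log2 0.76, adjusted p = 0.0115). At day 3 it had 2305 and 2077 in knockdown cells, against 2126 and 2396 in control cells, and overlapped. The day 1 effect on Xaf1 differed from the day 0 effect by -1.61 (adjusted p of the difference 0.00399). It differed from the day 3 effect by -0.80, which did not pass the test (adjusted p = 0.169). Of the 44 genes of the list, Xaf1 was the only 1 called for the difference from day 0. For the difference from day 3, 0 were called. Mean values of Lgals3bp at days 0, 1 and 3 were 333, 665 and 4466 in knockdown cells and 378, 1136 and 4049 in control cells. For Apol9b the corresponding means were 15.9, 84.8 and 1005 in knockdown cells and 25.2, 179 and 961 in control cells. In both arms the means of Lgals3bp and Apol9b at day 1 lay between those of days 0 and 3.

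**Figure D3:**
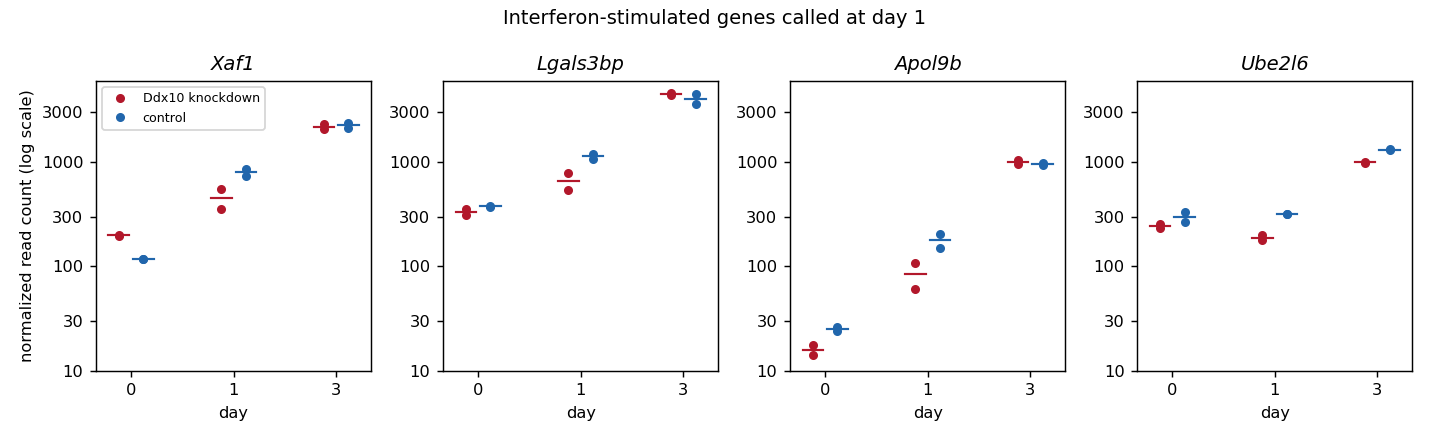
Normalized read counts (log scale) of 4 called interferon-stimulated genes at days 0, 1 and 3. Red points are the knockdown libraries, blue points the control libraries, and bars are means of 2. At day 1 all knockdown points lie below the control points; Xaf1 is higher in knockdown cells at day 0 (199.7 against 117 on average), and Ube2l6 is still lower at day 3 (998 against 1321).

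Of 88 listed genes of S phase or of G2 and M phase, 1 passed the test, Cdca3, which fell. Cdca3, the gene of an F-box-like protein that triggers mitotic entry, had 1091 and 1001 in knockdown cells, against 1623 and 1982 in control cells. The groups lay well apart, with a log2 fold change of -0.78 (SE 0.11, adjusted p = 0.00921). Cdca3 was called in the same direction at day 0 (log2 -0.49, adjusted p = 0.0218) and at day 3 (log2 -0.75, adjusted p = 0.00212), and it kept its call whichever of the 4 libraries of day 1 was left out. E2f8, Tuba1c and H1fx fell too and are in neither list. E2f8, an atypical E2F repressor made in S phase, had 1006 and 889 in knockdown cells, against 1364 and 1320.1 in control cells (log2 -0.50, SE 0.09, adjusted p = 0.0488). Its call was lost without knockdown replicate 1 (adjusted p = 0.0698) or replicate 2 (0.217). Tuba1c, an alpha-tubulin gene, had 10393 and 9864 in knockdown cells, against 13645 and 13067 in control cells (log2 -0.40, SE 0.06, adjusted p = 0.0107). H1fx, the linker histone H1X gene, had 236 and 206 in knockdown cells, against 416 and 464 in control cells (log2 -0.99, SE 0.18, adjusted p = 0.0488). Tubulin genes share long stretches of sequence, so the value of Tuba1c is uncertain to that extent.

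Of 44 G2 and M phase genes 1, Cdca3, fell, 0 rose and 43 did not pass. Their median log2 was -0.20, with 25 of 44 (56.8%) below both controls in both knockdown libraries, where 18.1% of all genes were. Plk1, the mitotic kinase, had 2028 and 1917 in knockdown cells, against 2824 and 2461 in control cells (log2 -0.42, adjusted p = 0.0574). Kif20a, a cytokinesis kinesin, had 3081 and 3006 in knockdown cells, against 3673 and 3965 in control cells (log2 -0.33, adjusted p = 0.0645). Of the 44 log2 values, 39 were negative and 5 positive. Cenpe had the highest, with 1921 and 2923 in knockdown cells against 1202 and 1762 in control cells (log2 0.70, adjusted p = 0.477). For S phase, 0 of 44 genes were called, the median log2 was -0.22, and in 27 of 44 (61.4%) the knockdown libraries lay below both controls, against the same 18.1% of all genes. Mcm3, Mcm5 and Mcm7, subunits of the replicative helicase, gave log2 values of -0.47, -0.40 and -0.38 with adjusted p-values of 0.0645, 0.0655 and 0.0645. Mcm3 had 2438 and 2385 in knockdown cells, against 3397 and 3276 in control cells. Of the 44 S phase values, 41 were negative and 3 positive. Pold2 had the highest, with 973 and 1450 in knockdown cells against 706 and 624 in control cells (log2 0.84, adjusted p = 0.374).

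Unlike the interferon-stimulated genes, both knockdown libraries took a similar part. Against control replicates 1 and 2, the S phase median was -0.17 and -0.28 for knockdown replicate 1 and -0.13 and -0.27 for replicate 2. For G2 and M phase it was -0.18 and -0.30 for replicate 1 and -0.11 and -0.26 for replicate 2. Control replicate 2 was the highest of the 4 libraries in 30 of 44 S phase genes and in 25 of 44 G2 and M phase genes. The S phase median was -0.16 at day 0, -0.22 at day 1 and -0.34 at day 3, with 2, 0 and 16 genes called lower. For G2 and M phase it was 0.00, -0.20 and -0.42, with 3, 1 and 24 genes called lower. Of all 15757 genes, 128, 19 and 355 were called lower at days 0, 1 and 3. Whether the day 1 lists differ from those of the other days was not tested as lists, and for the differences between days 0 of the 88 genes were called.

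Genes of ribosome assembly, the process in which Ddx10 acts, gave no call other than Ddx10 itself. Of 48 measured small-subunit assembly genes, Ddx10 fell and 47 did not pass, with a median log2 of -0.09. Imp4, a component of the complex that processes the small-subunit RNA, had 775 and 779 in knockdown cells, against 1018 and 1718 in control cells (log2 -0.77, adjusted p = 0.0783). Its control libraries lay further apart than control replicate 1 lay from the knockdown. Fbl, which encodes the methyltransferase fibrillarin, had 2072 and 2065 in knockdown cells, against 2901 and 2221 in control cells (log2 -0.30, adjusted p = 0.208).

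Of 45 large-subunit assembly genes 0 were called, with a median log2 of -0.10. They include Ddx24, a DEAD-box gene, at 2831 and 2928 in knockdown cells against 3180.1 and 3718 in control cells (log2 -0.26, adjusted p = 0.108). Mak16 (log2 -0.23, adjusted p = 0.192) and Noc2l (log2 -0.25, adjusted p = 0.197) follow it by p. Among 23 RNA polymerase I and nucleolar genes 0 were called, with a median log2 of -0.12. Ncl, the gene of nucleolin, had 22781 and 23758 in knockdown cells, against 29509 and 26752 in control cells (log2 -0.27, adjusted p = 0.103). Below both controls in both knockdown libraries were 35.4% of the small-subunit list, 42.2% of the large-subunit list and 39.1% of the nucleolar list, compared with 18.1% of all genes. Known targets of p53, which rises when ribosome assembly stalls, were not called in 29 of 29 genes, with a median log2 of 0.10. In 37.9% of them both knockdown libraries lay above both controls, compared with 16.6% of all genes. In 6.9% both lay below, compared with 18.1% of all genes. Trp53inp1, a p53-induced gene, had 3961 and 5075 in knockdown cells, against 3028 and 3717 in control cells (log2 0.42, adjusted p = 0.0956). Neither Btg2 (log2 0.23, adjusted p = 0.187) nor Fbxw7 (log2 0.31, adjusted p = 0.208) passed.

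Hspa8, the constitutive HSC70 chaperone gene, had 28302 and 25566 in knockdown cells, against 40979 and 38453 in control cells. This gap was wide against the spread in either arm, and the log2 fold change was -0.56 (SE 0.08, adjusted p = 0.00921). Hspa8 stood at 36869 ± 2293 in knockdown cells and 36305 ± 1307 in control cells at day 0 (SD, n = 2 each), and its day 1 effect differed from that of day 0 by -0.58 (adjusted p of the difference 0.0378). The call held whichever of the 4 libraries was left out. Small nucleolar RNA genes (Snord14c, Snord14d and Snord14e) overlap annotated Hspa8 exons on the same strand. Of 20 heat shock genes Hspa8 was the 1 that fell, 0 rose, and the median log2 was -0.05. Hsp90ab1 was at 48056 and 45547 in knockdown cells against 53425 and 52678 in control cells (log2 -0.18, adjusted p = 0.128). Hspa4l, by contrast, stood at 1709 and 1558 in knockdown cells against 1064 and 1412 in control cells (log2 0.41, adjusted p = 0.155).

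Ptbp1, the polypyrimidine tract-binding splicing repressor, had 10203 and 9165 in knockdown cells, against 13719 and 12117 in control cells (log2 -0.41, SE 0.07, adjusted p = 0.04). Cdc5l, a core spliceosome component, had 1319 and 1277 in knockdown cells, against 1661 and 1618 in control cells (log2 -0.34, SE 0.06, adjusted p = 0.0488). Both genes fell again at day 3, by -0.35 (adjusted p = 0.0118) and -0.32 (adjusted p = 0.00945). Rbm12, an RNA-binding protein gene, had 1060 and 1143 in knockdown cells, against 1568 and 1613 in control cells (log2 -0.53, SE 0.10, adjusted p = 0.0488). Exons of Rbm12 overlap those of Cpne1 on the same strand, and exons of Ptbp1 overlap Plppr3 on the other. The strand of counting is not given in the sources used here, so reads of such partners cannot be told apart.

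The remaining called falls belong to no list. Fam57a had 287 and 252 in knockdown cells, against 490.3 and 418 in control cells (log2 -0.75, SE 0.12, adjusted p = 0.0245), and it fell again at day 3 (log2 -0.62, adjusted p = 0.00982). Its exons overlap Gemin4 and Glod4. Tmem39a, a membrane protein gene of the endoplasmic reticulum, had 439 and 480.4 in knockdown cells, against 739 and 785 in control cells (log2 -0.73, SE 0.11, adjusted p = 0.0196). Tmem39a was higher in knockdown cells at day 3 without passing the test (log2 0.21), and its day 1 effect differed from the day 3 effect by -0.94 (adjusted p of the difference 0.032). Tpcn1, which encodes an endolysosomal channel, had 2016 and 1808 in knockdown cells, against 2811 and 2537 in control cells (log2 -0.48, SE 0.08, adjusted p = 0.0331). Tfg, a gene of early secretory transport, had 1882 and 1802 in knockdown cells, against 2442 and 2479.8 in control cells (log2 -0.42, SE 0.08, adjusted p = 0.0488). Pglyrp1, which encodes a peptidoglycan recognition protein, was listed at 0 in both knockdown libraries and at 3.21 and 4.13 in the control libraries (adjusted p = 0.00612). Such values are worth only a few reads, and with a pseudocount of 5 in place of 1 the adjusted p of Pglyrp1 was 0.107.

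Among the 4 genes that rose, Ahnak and Plec encode giant proteins of the cell cortex and cytoskeleton. Ahnak, the gene of a giant scaffold protein under the plasma membrane, had 36056 and 39600.1 in knockdown cells, against 24054 and 27709 in control cells. Plec, which encodes the cytoskeletal linker plectin, had 24356 and 22727 in knockdown cells, against 16157 and 15264 in control cells. Slc5a3, the sodium and myo-inositol cotransporter gene, had 1345 and 1344 in knockdown cells, against 789 and 950.1 in control cells. The groups were apart in each, with log2 fold changes of 0.55 (SE 0.09, adjusted p = 0.0331), 0.58 (SE 0.10, adjusted p = 0.0429) and 0.63 (SE 0.12, adjusted p = 0.0488). Ahnak and Plec lost their calls without either knockdown library, and Slc5a3 without either knockdown library or control replicate 1. At day 0 neither Ahnak (log2 0.04) nor Plec (log2 -0.20) was called, and the day 1 effect on Plec differed from that of day 0 by 0.78 (adjusted p of the difference 0.0343). Exons of Plec overlap Parp10, and those of Slc5a3 overlap Mrps6. Fam25c was listed at 0 in both control libraries and at 2.09 and 2.12 in the knockdown libraries (adjusted p = 0.0177), values again worth a few reads, with an adjusted p of 0.262 at a pseudocount of 5.

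Ahnak and Plec belong to a list of giant cytoskeletal and adhesion genes, a list drawn up with earlier results of these data known. Of 37 measured, 2 rose, 0 fell and 35 did not pass, with a median log2 of 0.18 and 26 of 37 (70.3%) above both controls in both knockdown libraries, where 16.6% of all genes were. Dmd, the dystrophin gene, had 1923 and 2147 in knockdown cells, against 1488 and 1651 in control cells (log2 0.37, adjusted p = 0.0699). Ahnak2 had 3639 and 3697 in knockdown cells, against 2850.3 and 2979 in control cells (log2 0.33, adjusted p = 0.0736). Flna, the filamin A gene, stood at 43175 and 42512 in knockdown cells against 42149.6 and 41485 in control cells (log2 0.03, adjusted p = 0.88).

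Transcript length moved with this result. Among 314 genes with a mean of at least 50 and a transcript of at least 10000 bases, the median log2 was 0.17, 250 values were positive, 3 genes rose and 0 fell. In 48.7% of them both knockdown libraries lay above both controls, compared with 16.6% of all genes. With genes cut into 5 equal bins of transcript length, the median log2 was -0.07, -0.06, -0.03, 0.01 and 0.08 from the shortest to the longest. At day 0 the genes with long transcripts gave 0.16 and at day 3 they gave 0.09. The giant cytoskeletal list had a median of -0.01 at day 0 and 0.12 at day 3, with 1 and 9 genes called higher. Of all 15757 genes, 393 and 396 were called higher at these days. After each library was corrected for GC and length, the median of the giant cytoskeletal list was 0.07, while Ahnak (log2 0.43, adjusted p = 0.00879) and Plec (log2 0.46, adjusted p = 0.0153) stayed called. The part of length in the higher values was not tested further.

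**Figure D4:**
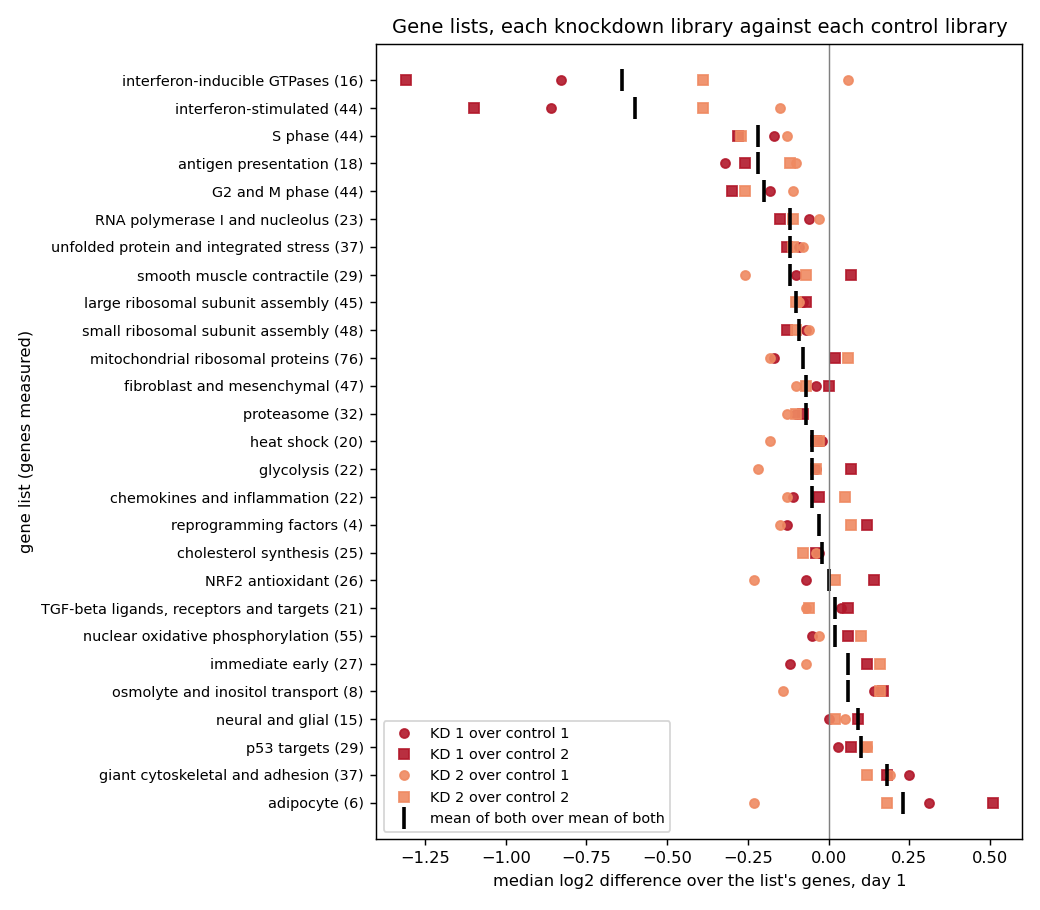
Median log2 difference at day 1 for 27 gene lists, those in which few genes had a mean under 10. Red points compare knockdown replicate 1, orange points knockdown replicate 2, with control replicate 1 (circles) or 2 (squares), and black ticks give the difference of the group means. The interferon lists spread from -1.31 to 0.06 across the 4 pairings, while the S phase and G2 and M phase lists lie between -0.30 and -0.11.

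The other lists held 0 called genes, apart from Slc5a3 among 8 osmolyte and inositol transport genes. The 4 reprogramming factors had 0 called. Pou5f1 (Oct4) had 14319 and 14184 in knockdown cells, against 11364 and 11711 in control cells (log2 0.30, adjusted p = 0.0609). Myc had 1449.6 and 1505 in knockdown cells, against 1671 and 1665 in control cells (log2 -0.18, adjusted p = 0.454). Klf4 overlapped, at 14243 and 13737 in knockdown cells against 15774 and 13069 in control cells (log2 -0.04). These values do not separate viral from cellular copies.

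Of 47 fibroblast and mesenchymal genes 0 were called, with a median log2 of -0.07. S100a4, a calcium-binding protein gene of fibroblasts, had 3277 and 2837 in knockdown cells, against 2457 and 2179 in control cells (log2 0.40, adjusted p = 0.0956). Dcn, the decorin gene, had 2927 and 3508 in knockdown cells, against 3900 and 4019.6 in control cells (log2 -0.31, adjusted p = 0.277). Smooth muscle contractile genes had a median log2 of -0.12 over 29 genes, and the focal adhesion gene Lpp stood at 5072 and 5590.1 in knockdown cells against 3856 and 4115 in control cells (log2 0.42, adjusted p = 0.089). Among 34 epithelial genes the median was 0.08, and among 37 pluripotency genes, 20 of which averaged under 10, it was 0.03.

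Genes of the unfolded protein and integrated stress responses had a median log2 of -0.12 over 37 genes. Calr, the calreticulin chaperone gene, had 9863 and 9676 in knockdown cells, against 12286 and 11308 in control cells (log2 -0.27, adjusted p = 0.0667). Pdia4, a disulfide isomerase gene, had 3544 and 3321 in knockdown cells, against 3979 and 4098 in control cells (log2 -0.24, adjusted p = 0.0751). Median log2 values were 0.00 for 26 NRF2 antioxidant genes, -0.02 for 25 cholesterol synthesis genes, -0.05 for 22 glycolysis genes, 0.02 for 55 oxidative phosphorylation genes, -0.08 for 76 mitochondrial ribosomal protein genes and -0.07 for 32 proteasome genes. TGF-beta genes gave 0.02 over 21 genes, with Smad2 at 998 and 1079 in knockdown cells against 1427 and 1165 in control cells (log2 -0.31, adjusted p = 0.171).

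Among marker lists of other cell types, the neural and glial list had a median log2 of 0.09 over 15 genes. Nefl, a neurofilament gene, had 2224 and 2226 in knockdown cells, against 1654 and 1604 in control cells (log2 0.45, adjusted p = 0.0669). Gap43 went the other way, at 1264 and 1142 in knockdown cells against 1619 and 1491 in control cells (log2 -0.37, adjusted p = 0.208). Of the 15 values, 8 were positive and 7 negative. For 18 macrophage and blood genes, 9 of them averaging under 10, the median was 0.51. The summed level of the 9 measured macrophage markers was 281 and 245 in knockdown cells, against 236 and 197 in control cells. Lyz2 had 81.1 and 51.6 in knockdown cells, against 38.9 and 31.5 in control cells (log2 0.87, adjusted p = 0.509). Cd68 overlapped, at 153 and 148 in knockdown cells against 167 and 133 in control cells (log2 0.02, adjusted p = 0.98). Of the 18 listed genes, 12 had a positive and 6 a negative log2 value. The part of such cells in the day 1 differences was not tested.

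Immediate early genes, which growth factors induce within minutes to hours, gave no call at day 1, and a few of them had a different effect at another day. Of 27 genes 0 were called at day 1, with a median log2 of 0.06 that became -0.07 without control replicate 2. At day 0, 10 of the 27 were called lower and 0 higher, where 128 and 393 of all 15757 genes were. The difference between the day 1 and day 0 effects was called for 43 genes (0.273%), 10 of them positive, and 5 of the 27 immediate early genes were among the 43. The remaining 22 did not pass, and the list itself was not tested. Egr1, a zinc finger gene induced by growth factors, had 3127 and 3553 in knockdown cells and 3499.6 and 3341 in control cells at day 1, which overlap. At day 0 Egr1 had 1341 and 1319 in knockdown cells, against 3802 and 3930.2 in control cells. The effects differed by 1.50 (SE 0.21, adjusted p of the difference 0.00823). Nr4a1, an orphan nuclear receptor gene, had 1342 and 1288 in knockdown cells and 1457 and 1236 in control cells at day 1. At day 0 it had 2068 and 2106 in knockdown cells, against 3738 and 4089 in control cells, a difference between the effects of 0.88 (adjusted p = 0.00648).

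Against day 3, 28 genes (0.178%) had a different effect at day 1, and 20 of the 28 differences were negative. Fbln5, the gene of an elastic fibre protein, had 11917 and 11547 in knockdown cells, against 13391 and 13521 in control cells at day 1. At day 3 Fbln5 had 1885 and 1729.6 in knockdown cells, against 1100.2 and 1037 in control cells, and the effects differed by -0.95 (SE 0.11, adjusted p of the difference 0.0053). Ctgf, a matricellular gene of the YAP and TGF-beta responses, had 7287 and 7336 in knockdown cells, against 8524 and 8674 in control cells at day 1. At day 3 Ctgf had 1878 and 1993 in knockdown cells, against 1284 and 1038 in control cells, a difference between the effects of -0.98 (adjusted p = 0.0149). In both genes the direction turned between these days: at day 1 the lower values in knockdown cells did not pass the test (adjusted p = 0.305 for Fbln5 and 0.303 for Ctgf), and at day 3 both genes rose.

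Of the 23 genes called at day 1, 18 had the same direction at day 3 and 16 at day 0. Called in the same direction were 9 of them at day 3, namely Ddx10, H1fx, Cdca3, Ube2l6, Fam57a, Ptbp1, Tuba1c, Cdc5l and Ahnak, and 4 at day 0. Xaf1 was called in the opposite direction at day 0. The effect differed from that of day 3 in Pglyrp1, Tmem39a, Lgals9 and Fam25c, and from that of day 0 in Pglyrp1, Ddx10, Xaf1, Hspa8, Tfg and Plec.

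The control libraries of day 1 differed from each other more than any other replicate pair of the series. Over genes with a mean of at least 50, the median absolute log2 difference between them was 0.207, compared with 0.12 for the knockdown pair of the same day, and with 0.0925 to 0.127 over the 9 remaining replicate pairs of the series. Among 11575 genes with a mean of at least 50 over the 4 libraries, 245 (2.12%) differed more than 2-fold between the controls, 161 of them higher in replicate 1 and 84 higher in replicate 2. Between the knockdown libraries 81 did. In 178 of the 245 genes both knockdown values lay between the control values, and 0 of the 245 were called between the arms. Both counts follow in part from picking genes with a wide gap between the controls, so they are a description only. Of the 245 genes, 24 also differed more than 2-fold between the knockdown libraries. The knockdown mean was nearer to control replicate 2 in 134 and nearer to replicate 1 in 111.

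Some single genes lay far apart between the controls, here as 1 library against 1. Prr14l had 835 and 999 in knockdown cells, against 7887 and 847 in control cells. Arntl2, a circadian transcription factor gene, had 79.1 and 73.9 in knockdown cells, against 752 and 57.7 in control cells. In both, control replicate 1 alone was high. Hr, a corepressor gene of hair follicles, had 31.6 and 25.4 in knockdown cells, against 38.8 and 315 in control cells, and Rpp40, a subunit gene of ribonuclease P, had 148 and 122 in knockdown cells, against 98.5 and 570.2 in control cells. There control replicate 2 alone was high. Bcl3, Srl and Spopl were the next largest with replicate 1 high, and Map4, Timm17a and Emc8 with replicate 2 high. Spopl and Map4 also lay apart between the knockdown libraries, with log2 values of -1.58 and 2.32 for replicate 1 over 2. The identifier of the entry named Map4, ENSMUSG00000103508, was not found in the annotation, so its values may not stand for the annotated gene.

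GC content moved with the difference between the controls. In 5 equal bins of transcript GC, from lowest to highest, the median log2 of control replicate 1 over 2 was -0.20, -0.12, -0.02, 0.09 and 0.18. The knockdown libraries showed a smaller trend of the same direction, with -0.15, -0.06, 0.02, 0.06 and 0.09 for replicate 1 over 2. The mean of both knockdown over the mean of both control libraries moved less, with 0.03, -0.00, -0.03, -0.04 and -0.04. After correction for GC and length the median absolute difference between the controls was 0.172, still above the 0.0866 to 0.112 of the other groups. The test then called 49 genes, 12 higher and 37 lower, 17 of the 23 among them. Xaf1 (adjusted p = 0.0286) and Ube2l6 (0.01) stayed called, while Lgals3bp (0.0564), Apol9b (0.0703) and Lgals9 (0.076) lost their calls. Without correction, knockdown over control at day 0 moved more with GC than at day 1. From the lowest to the highest bin it was 0.22, 0.08, -0.02, -0.12 and -0.16, which also enters the differences from day 0.

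**Figure D5:**
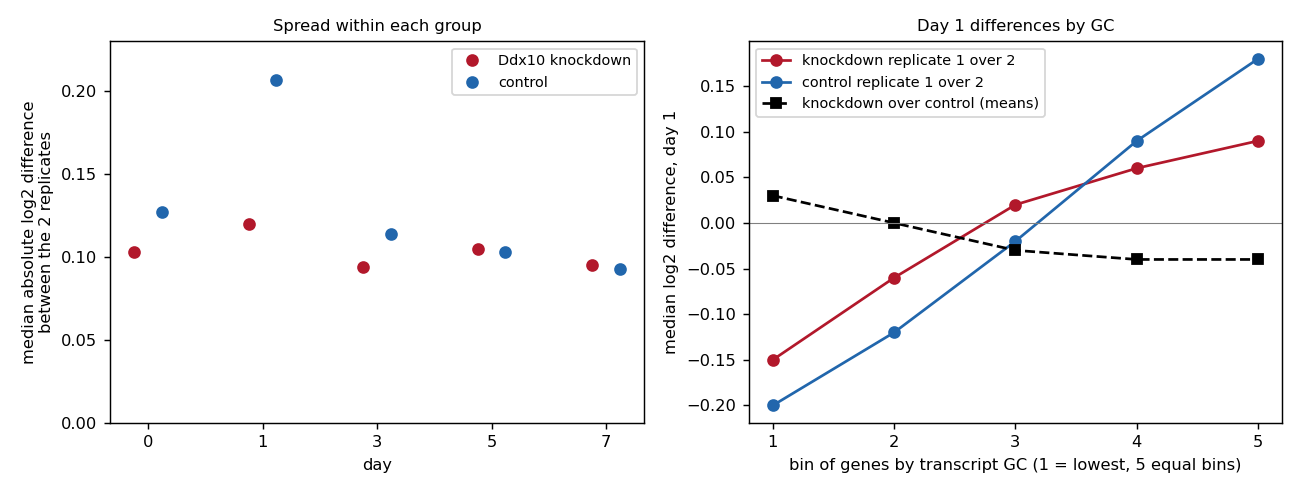
Spread between replicates and its relation to GC. Left, the median absolute log2 difference between the 2 libraries of each group by day, over genes with a mean of at least 50, with the day 1 control at 0.207 above all other groups. Right, the median log2 difference at day 1 by bin of transcript GC for the knockdown libraries (red), the control libraries (blue) and the arms (black), where the control line runs from -0.20 to 0.18.

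The number of called genes depended on single libraries. Leaving out control replicate 1 gave 339 calls (183 higher, 156 lower), and leaving out control replicate 2 gave 743 (221 higher, 522 lower). In both cases the remaining control library is assumed to vary like the other groups, and 22 of the 23 genes were called in both. Without knockdown replicate 1 the count was 18 (9 higher, 9 lower, 8 of the 23 kept), and without knockdown replicate 2 it was 42 (9 higher, 33 lower, 11 of the 23 kept). Pglyrp1, Ddx10, Cdca3 and Hspa8 kept their calls in all 4 cases. None of the 23 could turn direction when a library was left out, because their groups did not overlap. With library weights, which count the day 1 controls at 0.352 and the other groups at 0.706 to 1.49, Ddx10 alone was called. When limma saw nothing but the day 1 libraries, it called 0 genes, with 748 at an unadjusted p below 0.05.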

How the data were processed

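Total RNA of 20 libraries was sequenced as 150 bp read pairs on an Illumina HiSeq instrument after messenger RNA library preparation, per the labels' protocols. The deposited values are a signal per gene (1 table of 15757 genes), read here as the authors' normalized read counts because the columns hold decimals with nearly equal quartiles. The mm10 build, DESeq2 1.22.0, RSEM 1.2.22, STAR 2.5.2a and Trim Galore 0.4.4 are named, without roles, per the submitters' processing notes. How values were normalized or genes filtered, which annotation served and whether strand was used are not given in the sources used here. Low values were not whole multiples of a step for most genes, so whole reads could not be recovered and limma 3.58.1 in R 4.3.3 (trend and robust settings, 10 group means, all 20 libraries) was run on log2(value + 1), with adjustment by Benjamini and Hochberg over 15757 genes. The depths are estimates from the step between low values. A filter of at least 1 in 2 libraries removed 0 genes.

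Columns named shctrl were taken as the shLuci samples. Positions, lengths and GC come from GENCODE M21, in which 15665 identifiers were found and 92 were not, and 23 damaged symbols were restored. Promoters come from the RefSeq table. Scripts were tested on simulated data. Whether replicate numbers pair the arms is not given in the sources used here, and the main fit did not pair them. The members, the gene lists and the rule for named genes (Ddx10, all called genes, 3 members of each list by p, 4 genes each way per difference between days, and the 5 largest differences each way between the controls) were chosen with earlier results of these data known; not all genes that the rule gives are described. Alternatives covered scaling, pseudocount, filter, blocks, libraries left out, weights and GC. A result on 1 withheld item is not reported here.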

Additional observations from a re-analysis of the deposited data

Results flagged for a closer look

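The effect of the knockdown at day 1 differed from its effect at day 3 in 28 genes and from that at day 0 in 43, by a limma test of the difference itself, and 16 of these are given here (4 each way per day). All values are log2 differences between 2 effects. Against day 3, the differences were 2.49 for Fosb, 2.24 for Fam25c, 1.12 for Tapbpl, 2.42 for Gpx2, -0.95 for Fbln5, -0.98 for Ctgf, -0.74 for Serpinb9b and -0.67 for Adamts5. Fosb, an AP-1 subunit gene, had 365 and 262 in knockdown cells, against 212 and 137 in control cells at day 1, and 65.8 and 55.9 in knockdown cells, against 158 and 229 in control cells at day 3. Fam25c and Gpx2 had at most 2.24 in any day 1 library, so their differences rest on a few reads and on the pseudocount. Tapbpl, a tapasin-like gene, had 147 and 149 in knockdown cells, against 118 and 113 in control cells at day 1, and 222 and 223 in knockdown cells, against 374 and 388 in control cells at day 3.

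Against day 0, the differences were 0.87 for Btg2, 0.88 for Nr4a1, 0.66 for Jun, 1.50 for Egr1, -0.90 for Gna14, -1.61 for Xaf1, -1.77 for Nebl and -1.46 for Aldh3a1. Of these only Xaf1 was called at day 1. Nebl, a nebulette gene, had 112 and 143 in knockdown cells and 131 and 126 in control cells at day 1, but 123 and 123 in knockdown cells, against 35.8 and 35.8 in control cells at day 0. Aldh3a1, an aldehyde dehydrogenase gene, had 2551 and 2431 in knockdown cells and 2565 and 2682 in control cells at day 1, and 152 and 139 in knockdown cells, against 69.8 and 43.3 in control cells at day 0. Gna14, a G protein subunit gene, had 702 and 678 in knockdown cells, against 912 and 895 in control cells at day 1 (adjusted p = 0.0574), and was higher in knockdown cells at day 0, with 276 and 262 against 197 and 180.5.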

How the results depend on the processing

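The count of 23 genes at day 1 became 13 with quantile scaling, 14 with trimmed mean scaling, 40 and 14 with pseudocounts of 0.1 and 5, 8 without the trend and robust settings, 1 with the 8 libraries of days 1 and 3, 1 with library weights, 0 with the 4 libraries of day 1 alone and 49 with the GC and length correction, which was chosen after seeing the data. It was 18 to 743 with a library left out, and stayed within 1.5 times without a filter, with a filter of 20 and with the nested block. No label says that replicate numbers pair the samples, and the correlation of deviations between the day 1 arms was 0.08. The replicate block gave 12 for the count at day 1, 24 for the difference from day 0 and 19 for that from day 3. The 28 differences from day 3 became 14 with quantile scaling, 0 with library weights (1038 at an unadjusted p below 0.05) and 4 to 226 with a library left out. The 43 differences from day 0 became 26 with quantile scaling, 101 with a pseudocount of 0.1, 9 with library weights and 21 to 662 with a library left out. Ddx10 had -1.58 with the 4 libraries of day 1 alone but missed the threshold there (adjusted p = 0.523; range over all alternatives 6.53e-07 to 0.523). The causes were not tested. None of the 23 called genes turned direction under these alternatives. For libraries left out this was fixed in advance, as the groups did not overlap. Depth, at about 12300000 reads in the shallowest of the 4 libraries, limits values of a few reads.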
